A study of Mus musculus with 13 samples.

Results

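The inhibitor of DNA binding (ID) proteins and the regulators that hold back SMAD signalling were followed through endoplasmic reticulum (ER) stress by ribosome footprints. The group held 10 genes chosen by symbol out of the 22406 symbols measured: Id1, Id2, Id3, Smad6, Smad7, Ski, Skil, Tgif1, Smurf1 and Smurf2. They were gathered around Id3, which had been picked because its footprints were higher early in WT cells but not in PERK -/- cells. The changes of Id3 in these cells are therefore given as a description and support nothing by themselves. Ribosome footprint profiling sequences the mRNA pieces that ribosomes protect, so each value mixes the amount of an mRNA with how heavily it was translated.

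The libraries came from mouse embryonic fibroblasts (MEFs) that were WT or PERK -/- and from NIH3T3 cells, a mouse fibroblast line. PERK, encoded by Eif2ak3, is an ER-resident kinase that slows translation when unfolded proteins build up in the ER. Thapsigargin (Tg), which empties the ER of calcium, was given to both kinds of MEFs at 1 µM for 1, 2, 5 or 8 h, and to NIH3T3 cells at 200 nM for 2 or 7 h. Each cell type also had an untreated control. All cells were grown with 10% serum and harvested without cycloheximide. Each of the 13 conditions was 1 library, 10 from MEFs and 3 from NIH3T3 cells, so replicate error is unknown and no test between conditions was made. No second isolate of either kind of MEF is named, so the PERK genotype and the cell isolate cannot be told apart.

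ID proteins carry a helix-loop-helix domain but no DNA-binding region, and they tie up the E proteins that drive differentiation. Their genes are classical targets of bone morphogenetic proteins (BMPs), members of the TGF-β family, whose receptors phosphorylate SMAD proteins that then enter the nucleus. Smad6 and Smad7 are inhibitory SMADs switched on by the same signal, SKI, SKIL and TGIF1 are corepressors that bind the signal-carrying SMADs, and SMURF1 and SMURF2 are ubiquitin ligases that mark SMADs and receptors for destruction.

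Levels are in TPM, which correct for gene length and sum to the same total in each library, so that a gene can gain only where others lose. By polysome profiling, the paper reports that overall translation fell under Tg in WT MEFs and the fibroblast line. In PERK -/- MEFs it reports no early fall and a slight late one. The paper therefore treats footprint levels as relative. A rise here is a larger share of a library's footprints, and genotype differences compare such shares. Footprints per cell were not measured. TPM values under 4 were raised to 4 before a change was computed, and a gene was kept where its TPM averaged at least 2 over a table. All 10 genes passed this filter in both tables, among 10432 genes in MEFs and 10117 in NIH3T3 cells. "Rose" and "fell" mean at least 2-fold against the untreated control of the same cells. Intervals are exact (Clopper-Pearson) 95% intervals of log2 changes in expected counts per library total, and they cover counting error only. The MEF and NIH3T3 tables were scaled separately, so a level set across them is a rough guide.

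Total expected counts ran from 2525029 (WT 2 h) to 14799515 (PERK -/- 2 h), and a count of 3 was equal to 1.19 and 0.203 counts scaled to the library total (CPM) in these libraries. The libraries of WT 1 h, WT 2 h and NIH3T3 2 h were the smallest of their cells, and WT 2 h and NIH3T3 2 h were also the libraries in which the 3 ID genes were highest in those cells. Footprints on Eif2ak3 ran from 14.4 to 33.3 CPM in WT and from 7.64 to 19.1 CPM in PERK -/- MEFs. In TPM they ran from 6.03 to 15.68 in WT and from 5.21 to 17.19 in PERK -/- MEFs. Untreated PERK -/- MEFs lay above untreated WT MEFs in TPM (11.17 against 6.03) but below them in CPM. The ranges overlap in both measures and the controls disagree, so no direction is given. A whole-gene count does not single out the deleted part. Of 14 fibroblast markers, 11 reached 4 TPM in a WT library, 14 in a PERK -/- library and 11 in an NIH3T3 library, where Lum and Dcn stayed at 0. The summed fibroblast markers were 8118 to 9776 TPM in WT, 6787 to 10676 TPM in PERK -/- MEFs and 6609 to 11399 TPM in NIH3T3 cells. Leukocyte, endothelial and muscle markers summed to at most 7.57 TPM in any library, and epithelial markers to at most 36.3 TPM.

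Because several of these genes went together, the start regions that the RefSeq promoter table (build GRCm38.p6) gives for them were searched on both strands for SMAD and stress motifs. Of the 10 genes, 7 had an entry (Id2, Id3, Smad6, Ski, Tgif1, Smurf1 and Smurf2), with 11 windows of 300 bases, 250 before and 50 after a start site. Id1, Smad7 and Skil, which rose early in both WT MEFs and NIH3T3 cells, had no entry and were not searched. The search therefore says nothing about those genes. The SMAD palindrome GTCTAGAC occurred in 1 of these windows, that of Smad6, and in 0.213% of all 32851 windows. The GC-rich SMAD site GGCGCC occurred in the windows of Id2, Ski and Smurf2 and in 11.9% of all windows. The amino acid response element (TGATGNAAN, 3.95% of all windows), the cAMP response element (TGACGTCA, 1.79%) and the ER stress response element (searched in its full consensus form, 0.119%) had no match in the windows of these genes. Each stretch below holds at most 1 match, and a match of letters is not a binding site. The stretches are shown for the palindrome and for the ID genes the results turn on, 5′ to 3′ on the strand of the gene, with a matched motif in capitals.
Smad6, chr9:64022045-64022074, minus strand: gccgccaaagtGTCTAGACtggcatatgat
Id2, chr12:25096093-25096342, minus strand: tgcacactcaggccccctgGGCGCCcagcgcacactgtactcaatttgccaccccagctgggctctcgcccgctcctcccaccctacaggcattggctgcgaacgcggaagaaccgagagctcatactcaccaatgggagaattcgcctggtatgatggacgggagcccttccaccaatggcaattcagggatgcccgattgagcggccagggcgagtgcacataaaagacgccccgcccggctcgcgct
Id3, chr4:136143572-136143821, plus strand: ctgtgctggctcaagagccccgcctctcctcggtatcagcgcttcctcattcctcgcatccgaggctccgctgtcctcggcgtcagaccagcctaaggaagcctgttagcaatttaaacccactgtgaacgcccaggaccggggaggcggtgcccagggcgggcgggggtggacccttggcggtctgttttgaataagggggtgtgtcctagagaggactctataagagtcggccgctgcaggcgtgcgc

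Id3 (chr4:136143822-136145392, GRCm38.p6) had the highest footprint level of the 10 genes in every library. In WT MEFs its level was 171 TPM untreated and 721, 1360, 759 and 800.0 after 1, 2, 5 and 8 h. All 4 Tg libraries of WT MEFs stood above their control, with the top at 2 h and close values at the later times. In PERK -/- MEFs the level was 293 TPM untreated and 276, 276, 206 and 158 after 1, 2, 5 and 8 h, so no Tg library stood above its control. These are bulk libraries, in which fewer expressing cells and less footprint per cell cannot be told apart. In NIH3T3 cells it was 505 TPM untreated, 3108 at 2 h and 1347 at 7 h.

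Against their own control, the WT folds of Id3 were 4.21, 7.95, 4.44 and 4.67 in order of time. The 2 h change rested on 599 counts in the control and 1009 at 2 h, with a log2 change in counts of 3.00 (2.85 to 3.14). In NIH3T3 cells Id3 rose 6.16-fold at 2 h and 2.67-fold at 7 h. The log2 change in counts in PERK -/- MEFs was -0.06 (-0.21 to 0.10) at 1 h and -0.02 (-0.16 to 0.13) at 2 h. Both of these intervals contain 0, and the sign at both times turns positive with trimmed mean of M-values (TMM) scaling (0.04 and 0.09). By 8 h the log2 change in PERK -/- MEFs was -0.90 (-1.10 to -0.71), short of the 2-fold mark.

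The order of the Id3 levels in MEFs placed WT 2 h first, then WT 8, 5 and 1 h, then the PERK -/- control with the 1, 2 and 5 h PERK -/- libraries, then the WT control, with PERK -/- 8 h last. WT 8 h and 5 h were neighbours whose counts did not differ beyond counting error (log2 0.08, -0.02 to 0.18). Over all genes, the log2 ratios of these neighbouring libraries had an SD of 0.19. This was the smallest such SD. In the other pairs of neighbouring Tg times it ran from 0.30 (PERK -/- 2 h against 1 h) to 0.63 (NIH3T3 7 h against 2 h).

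**Figure D1:**
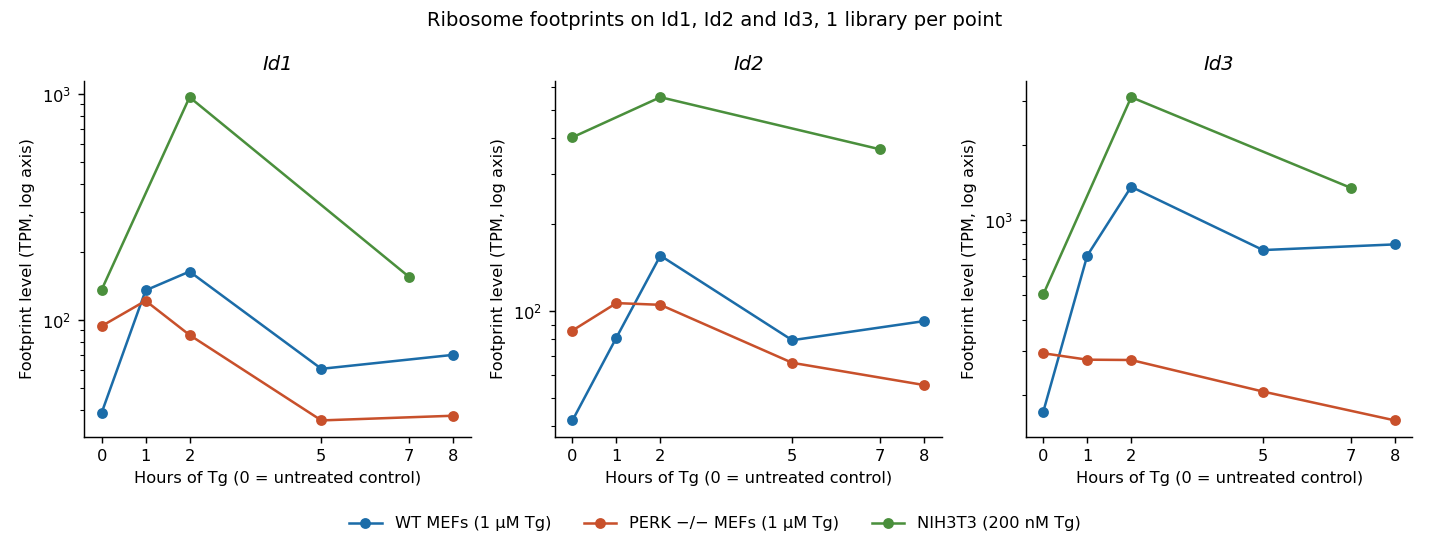
Footprint levels of Id1, Id2 and Id3 (TPM, log axis) against hours of Tg, with 0 h as the untreated control, for WT MEFs (blue), PERK -/- MEFs (orange) and NIH3T3 cells (green); each point is 1 library. Id3 in WT MEFs goes from 171 TPM to 1360 TPM at 2 h, while PERK -/- MEFs have 293 TPM untreated and 158 TPM at 8 h.

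Id1 (chr2:152736251-152737410) rose early and was past 2-fold at 1 and 2 h only. WT MEFs had 38.7 TPM untreated and 135, 164, 60.6 and 69.9 after 1, 2, 5 and 8 h. NIH3T3 cells had 136 TPM untreated, 968 at 2 h and 155 at 7 h. The rise was thus 3.48-fold and 4.22-fold at 1 and 2 h in WT MEFs and 7.12-fold at 2 h in NIH3T3 cells, and the values at 5, 7 and 8 h were nearer to the control. In WT MEFs Id1 was still 1.57 times its control at 5 h and 1.81 times at 8 h. The log2 changes in counts there were 0.64 (0.31 to 0.97) and 0.85 (0.58 to 1.12). From 2 h to 7 h in NIH3T3 cells the log2 change in counts was -2.78 (-2.95 to -2.61).

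PERK -/- MEFs had 93.8 TPM of Id1 untreated and 121, 85.6, 35.8 and 37.6 after 1, 2, 5 and 8 h. Here Id1 fell, by 2.62-fold at 5 h and 2.50-fold at 8 h, with 245 counts in the control and 114 and 109 at these times. The log2 changes in counts were -1.36 (-1.69 to -1.03) and -1.31 (-1.65 to -0.98). The 1 h and 2 h values of this series were 1.29 and 0.91 times the control.

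Id2 (chr12:25093799-25096092), whose start region is shown above, moved less than Id1 at 1 and 2 h in WT MEFs, but not at 5 and 8 h. WT MEFs had 41.9 TPM untreated and 81.1, 156, 79.4 and 92.5 after 1, 2, 5 and 8 h, so all 4 Tg libraries lay above the control. It rose 3.72-fold at 2 h and 2.21-fold at 8 h, and its 1 h and 5 h values were 1.94 and 1.90 times the control, just short of 2-fold. Levels in PERK -/- MEFs were 85.8 TPM untreated and 107, 105, 66.3 and 55.6 after 1, 2, 5 and 8 h, and none was 2-fold away. NIH3T3 cells had the highest Id2 levels, 401 TPM untreated, 552 at 2 h and 364 at 7 h, and unlike Id1 and Id3 it did not reach 2-fold there (1.38 at 2 h).

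The ID genes are short, and Id1 and Id3 are GC-rich. Their coding sequences are 504 nt (Id1), 465 nt (Id2) and 357 nt (Id3), against a median of 1362 nt over the genes tested, and the GC content is 62.9%, 54.4% and 63.6% against a median of 52.8%. With the trend on GC content removed, the log2 change of Id3 at WT 2 h was 2.64 in place of 2.99, and with the trend on coding length removed it was 3.10. With all libraries thinned to the smallest one it was 3.17. Each of these values kept Id3 past 2-fold at WT 2 h.

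Id4, the remaining ID gene, was named after its values were seen and had few counts. It held 4, 4, 9, 10 and 27 counts in the WT libraries in order of time, 0, 3, 11, 1 and 2 in the PERK -/- libraries and 9, 14 and 1 in NIH3T3 cells. Its highest levels were 8.27 TPM at WT 2 h and 10.7 TPM at NIH3T3 2 h.

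Among the inhibitory SMADs, Smad7 rose in WT MEFs and NIH3T3 cells. Its WT levels were 7.67 TPM untreated and 12.1, 24.4, 18.2 and 15.5 after 1, 2, 5 and 8 h, from 57 to 224 counts. It rose 3.19-fold at 2 h, 2.38-fold at 5 h and 2.02-fold at 8 h. The 8 h value lies on the 2-fold mark, and its log2 change falls below it with TMM factors (0.91), DESeq2 size factors (0.91), a pseudocount of 1 TPM (0.93), thinning (0.79) and removal of the GC trend (0.61). The last of these also takes the 5 h value below it (0.89). In NIH3T3 cells the levels were 5.70 TPM untreated, 12.5 at 2 h and 12.6 at 7 h, a rise of 2.19-fold and 2.21-fold.

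PERK -/- MEFs had 7.17 TPM of Smad7 untreated and 6.15, 3.74, 8.23 and 3.46 after 1, 2, 5 and 8 h, on 33 to 87 counts. The 2 h and 8 h levels lie under the 4 TPM floor, so the change there is cut at 0.56 times the control. In counts, with no floor, the log2 change at 8 h was -1.05 (-1.71 to -0.42).

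Smad6, whose start region holds the palindrome, was close to the limit of detection. WT MEFs had 1 count untreated and 10, 11, 27 and 48 after 1, 2, 5 and 8 h, that is 0.06, 1.81, 2.86, 3.18 and 2.83 TPM. All 5 WT levels lie under the 4 TPM floor, so no change was called. The log2 ratio of counts at 2 h was 5.70 with an interval of 2.92 to 11.1, since it rests on 1 count in the control. PERK -/- MEFs had 4.72, 2.65, 2.04, 3.86 and 4.29 TPM in order of time, with 48 counts in the control and in the 2, 5 and 8 h libraries and 41 at 1 h. The same count of 48 stood at WT 8 h, although the totals of these libraries differ. The reason is not known, so the Smad6 counts are to be read with care. NIH3T3 cells had 2.02 TPM untreated, 4.13 at 2 h and 4.63 at 7 h, on 37, 19 and 44 counts.

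Of the corepressors, Skil changed most. WT MEFs had 33.9 TPM untreated and 32.8, 73.9, 42.9 and 41.1 after 1, 2, 5 and 8 h, so the 2 h library alone stood apart. The rise at 2 h was 2.18-fold, and the log2 change in counts between 1 h and 2 h was 1.12 (0.88 to 1.36). In NIH3T3 cells Skil had 20.8 TPM untreated, 44.2 at 2 h and 69.1 at 7 h, a rise of 2.13-fold and then 3.33-fold. The direction was the other one in PERK -/- MEFs, with 45.6 TPM untreated and 41.0, 36.3, 21.0 and 23.3 after 1, 2, 5 and 8 h. Skil fell 2.17-fold there at 5 h, and its 8 h value was 1.96-fold lower, just short of the mark.

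Tgif1, a homeodomain corepressor, rose in 1 comparison, 2.53-fold at NIH3T3 7 h. Its NIH3T3 levels were 49.9 TPM untreated, 63.7 at 2 h and 126 at 7 h. In MEFs it ranged from 42.9 to 56.8 TPM in WT and from 22.5 to 34.1 TPM in PERK -/- libraries, so each WT library lay above each PERK -/- library. Ski, the corepressor related to Skil, fell 2.93-fold at NIH3T3 7 h, from 19.98 TPM in the control through 12.2 at 2 h to 6.81. In MEFs Ski ranged from 17.6 to 24.4 TPM in WT and from 15.5 to 23.6 TPM in PERK -/- libraries, with no change of 2-fold.

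Of the ubiquitin ligases, Smurf2 fell and Smurf1 stayed within 2-fold throughout. WT MEFs had 13.8 TPM of Smurf2 untreated and 7.20, 6.53, 7.83 and 6.42 after 1, 2, 5 and 8 h, so each Tg library held less than the control. The fall was 2.11-fold at 2 h and 2.15-fold at 8 h, and the 1 h and 5 h levels were 0.52 and 0.57 times the control. The 2 h value rests on 38 counts, and neither fall reaches 2-fold once the GC trend is removed (-0.83 at 2 h and -0.79 at 8 h on the log2 scale); Smurf2 has a GC content of 45.4%. In PERK -/- MEFs Smurf2 ranged from 13.2 to 16.1 TPM, above every WT library treated with Tg. NIH3T3 cells had 14.0 TPM untreated, 6.39 at 2 h and 11.4 at 7 h, a 2.18-fold fall at 2 h on 37 counts. Smurf1 ranged from 17.9 to 24.2 TPM in WT, from 15.2 to 16.2 TPM in PERK -/- and from 13.2 to 22.2 TPM in NIH3T3 libraries.

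**Figure D2:**
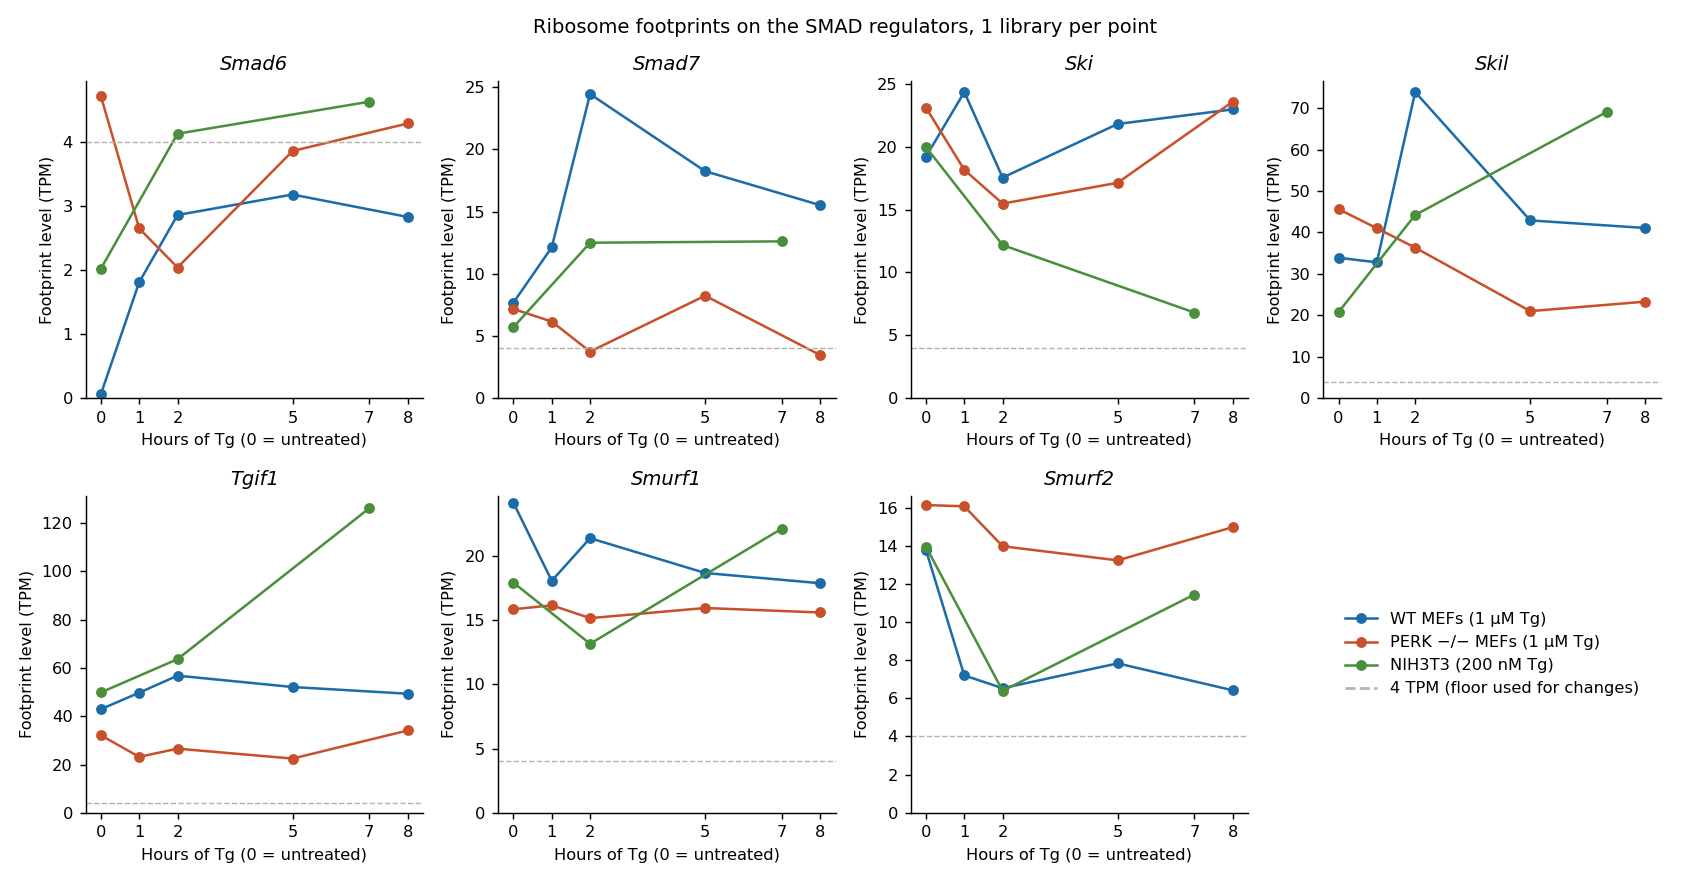
Footprint levels (TPM) of the 7 SMAD regulators against hours of Tg, with 0 h as the untreated control; each point is 1 library and the dashed line marks the 4 TPM floor. Smad7 and Skil peak at 2 h in WT MEFs (24.4 and 73.9 TPM), Smurf2 lies lower in every WT Tg library than in the WT control (13.8 TPM), and Smad6 stays near or under the floor.

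Counted over the 10 genes, 2 rose at 1 h in WT MEFs (Id1 and Id3), where 4.33% of all genes tested did. At 2 h 5 rose (Id1, Id2, Id3, Smad7 and Skil) beside 5.66% of all genes, at 5 h 2 (Id3 and Smad7) beside 5.86%, and at 8 h 3 (Id2, Id3 and Smad7) beside 6.45%. Smurf2 was the 1 gene that fell at 2 h (4.01% of all genes) and at 8 h (3.87%), and 0 fell at 1 h (2.29%) and 5 h (3.55%). With TMM scaling and no floor, Smad6 was also more than 2-fold higher at each time, from 1 count in the control. Smad7 at 8 h was then no longer 2-fold higher (0.91 on the log2 scale). The median log2 change of the 10 genes was 0.28, 0.76, 0.31 and 0.27 in order of time (0.47, 1.33, 0.41 and 0.48 with TMM scaling and no floor). That of all genes was 0.00, 0.00, 0.00 and 0.01 (0.002, -0.007, -0.004 and -0.011 with TMM scaling). Nothing is read from these shares, as Id3 was chosen on these contrasts.

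None (0) of the 10 genes rose in PERK -/- MEFs at any time, beside 0.719%, 0.623%, 3.26% and 3.28% of all genes at 1, 2, 5 and 8 h. Id1 and Skil fell at 5 h (4.77% of all genes) and Id1 at 8 h (2.73%), while 0 fell at 1 h (3.38%) and 2 h (5.78%). With TMM scaling and no floor, Smad6 was also more than 2-fold lower at 2 h and Smad7 at 8 h. The median log2 change of the 10 genes was -0.12, -0.22, -0.40 and -0.38, and with TMM scaling it was 0.06, 0.01, -0.36 and -0.48. For all genes it was -0.06, -0.11, 0.00 and 0.04 in TPM with the floor, and 0.007, -0.004, -0.001 and -0.014 with TMM scaling. The Tg libraries of a genotype share 1 control, so their changes are not independent of each other.

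NIH3T3 cells, whose control is a separate library, had 4 of the 10 genes higher at 2 h (Id1, Id3, Smad7 and Skil) beside 5.76% of all genes, and 4 at 7 h (Id3, Smad7, Skil and Tgif1) beside 7.01%. Smurf2 was the gene that fell at 2 h (3.76%) and Ski the one that fell at 7 h (8.06%). The median of the 10 genes was 0.41 at 2 h and 0.26 at 7 h, against -0.13 and 0.00 over all genes. With TMM scaling and no floor it was 0.93 and 0.82, against 0.00 and 0.01 over all genes. Id3, Smad7 and Skil were thus higher at 2 h in both WT MEFs and NIH3T3 cells, as was Id1, and Smurf2 was lower in both.

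**Figure D3:**
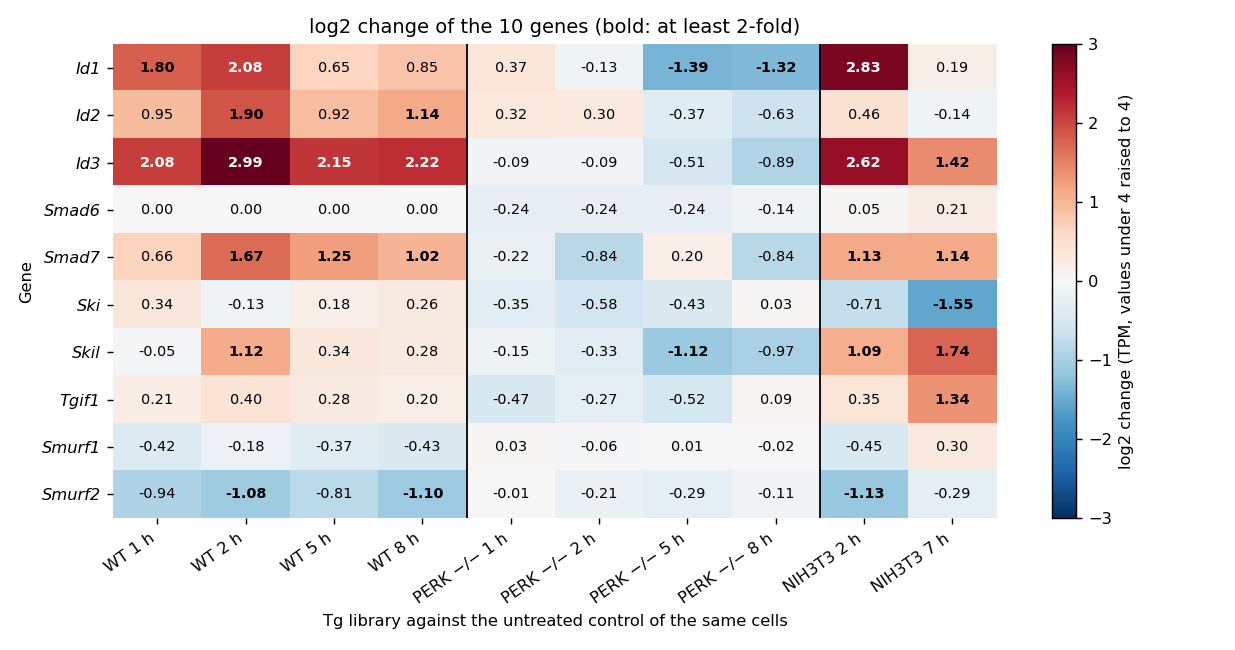
log2 change (TPM, values under 4 raised to 4) of the 10 genes, in rows, in the 10 Tg libraries against the control of the same cells, in columns; red is higher, blue is lower, and values of at least 2-fold are bold. The ID genes, Smad7 and Skil are red at WT 2 h, and 0 of the genes is bold in PERK -/- MEFs at 1 or 2 h.

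The genotypes were also set against each other at each time, as the WT log2 change in counts minus that of PERK -/- MEFs, with an approximate (normal) 95% interval from the counts of all 4 libraries. Id3 had been chosen on this contrast at the early times, so its values here are a description and support nothing. For Id3 this difference was 2.15 (1.93 to 2.36) at 1 h, 3.01 (2.81 to 3.22) at 2 h, 2.62 (2.40 to 2.84) at 5 h and 3.13 (2.90 to 3.36) at 8 h. For Id1 it was 1.42 (1.05 to 1.79) at 1 h, and then 2.16, 2.00 and 2.16. For Id2 it was 0.62 (0.19 to 1.06) at 1 h and 1.78 (1.37 to 2.19) at 8 h. For Smad7 the difference was 0.86 (0.20 to 1.52) at 1 h, 2.54 (1.91 to 3.18) at 2 h, 1.02 (0.43 to 1.61) at 5 h and 2.08 (1.39 to 2.76) at 8 h. Skil gave 0.03 (-0.23 to 0.29) at 1 h and then 1.29, 1.44 and 1.23. Smurf2 lay on the other side, with -1.08 (-1.54 to -0.62) at 1 h and -1.03 (-1.40 to -0.65) at 8 h, and so, with smaller values, did Smurf1: -0.50 (-0.85 to -0.15) at 1 h, -0.15 (-0.50 to 0.21) at 2 h, -0.38 (-0.71 to -0.06) at 5 h and -0.27 (-0.58 to 0.04) at 8 h. With the GC trend removed from the TPM changes, the 2 h difference was 2.45 for Id3 and -0.37 for Smurf2. Tgif1 gave 0.72 (0.32 to 1.13), 0.65 (0.26 to 1.05) and 0.97 (0.57 to 1.37) at 1, 2 and 5 h, and 0.15 (-0.20 to 0.50) at 8 h. Ski gave 0.66 (0.35 to 0.97), 0.38 (0.01 to 0.74) and 0.56 (0.25 to 0.87) at these times and 0.20 (-0.07 to 0.47) at 8 h. The 2 h difference of Ski was 0.19 with TMM scaling and -0.17 with the GC trend removed, so its sign depends on the setting. At 8 h it was -0.21 with the GC trend removed. The 8 h intervals of Tgif1, Ski and Smurf1 contain 0.

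**Figure D4:**
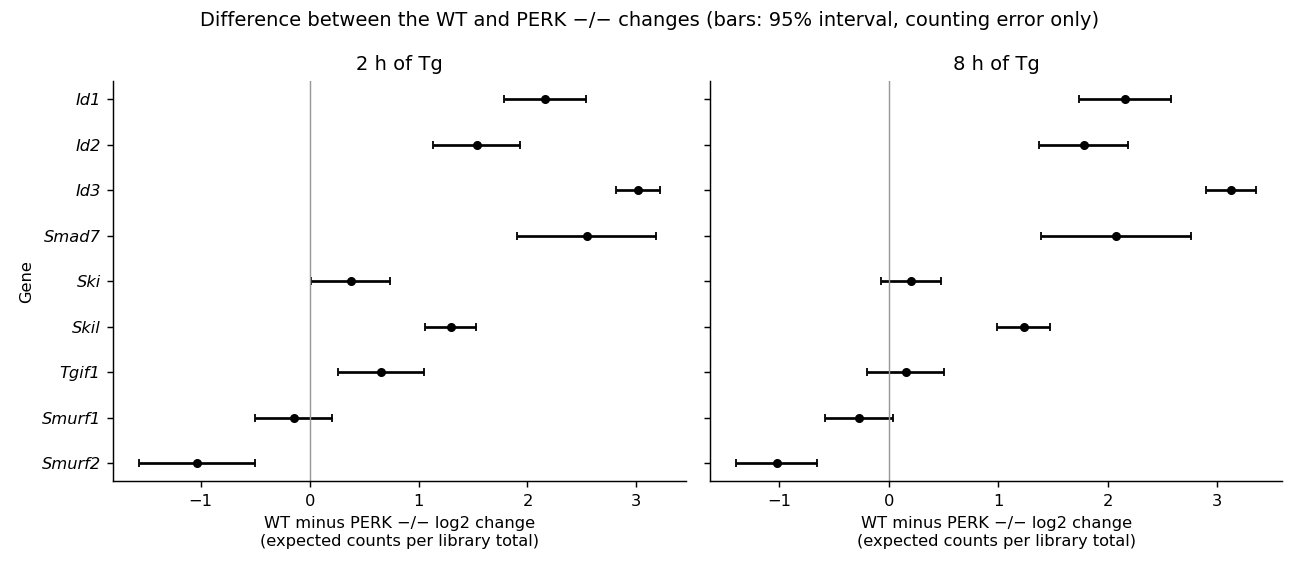
WT minus PERK -/- log2 change (expected counts per library total) at 2 h and 8 h of Tg for 9 of the genes; points are differences, bars are approximate 95% intervals for counting error only, and Smad6 is left out for its 1 count in the WT control. Id3, which had been chosen on the early contrast, lies at 3.01 and 3.13, and Smurf2 at -1.03 at both times.

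The untreated cells already differed, so the differences above also carry the gap between the controls. Untreated PERK -/- MEFs had more Id1 than untreated WT MEFs by 2.42-fold (log2 of counts 1.27, 0.99 to 1.56) and more Id2 by 2.05-fold (1.03, 0.73 to 1.34). These were the 2 genes past 2-fold, beside 6.04% of all genes, and 0 were lower, beside 1.97%. Id3 was 1.71-fold higher (0.77, 0.61 to 0.94). With TMM scaling Id2 was at 0.88 on the log2 scale and no longer 2-fold higher. Smurf1 was the lowest of the 10 against WT, at 0.66 times the WT level. The log2 ratio of Smad6 counts was 6.41 (3.87 to 11.7), from 1 count in WT and 48 in PERK -/- MEFs.

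After Tg, the level of Id3 in PERK -/- MEFs was below that in WT MEFs at each time, with log2 ratios of counts of -1.37 (-1.52 to -1.23) at 1 h, -2.24 (-2.36 to -2.12) at 2 h, -1.85 (-2.0003 to -1.70) at 5 h and -2.35 (-2.52 to -2.19) at 8 h. For Id1 at 1 h the ratio was -0.15 (-0.39 to 0.10), so the levels there were not told apart at this depth, and at 8 h it was -0.89 (-1.22 to -0.57).

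The rest of the pathway was read from 7 lists of 99 genes (each counted once), of which 83 were tested in MEFs and 69 in NIH3T3 cells. The shares of all genes to read these counts against are 4.33%, 5.66%, 5.86% and 6.45% higher and 2.29%, 4.01%, 3.55% and 3.87% lower in WT MEFs at 1, 2, 5 and 8 h, 0.719%, 0.623%, 3.26% and 3.28% higher and 3.38%, 5.78%, 4.77% and 2.73% lower in PERK -/- MEFs, and 5.76% and 7.01% higher and 3.76% and 8.06% lower in NIH3T3 cells at 2 and 7 h. In WT MEFs 4, 9, 4 and 4 of the 83 rose at 1, 2, 5 and 8 h and 3, 3, 4 and 3 fell, so that the counts at 1, 5 and 8 h are near the background in both directions. The PERK -/- counts were 1, 0, 4 and 2 that rose and 6, 9, 11 and 13 that fell. In NIH3T3 cells 7 rose and 8 fell at 2 h, and 6 rose and 12 fell at 7 h. TMM scaling with no floor gave 8, 11, 9 and 8 higher and 4, 8, 6 and 7 lower in WT MEFs, 4, 3, 5 and 4 higher and 5, 7, 11 and 15 lower in PERK -/- MEFs, and 10 higher and 2 lower at NIH3T3 2 h and 7 and 13 at 7 h. The shares above are for TPM with the 4 TPM floor, so they are no background for the TMM counts here or below. Genes of these lists that are named without a value were named after their values were seen.

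Of 8 ligand genes tested in MEFs, 1 rose at every time in WT, Tgfb2, which encodes TGF-β2. It went from 18.9 to 56.2 TPM at WT 5 h (2.97-fold) and from 19.8 to 67.5 TPM at PERK -/- 5 h (3.41-fold), so it rose in both genotypes. Tgfb2 rose at PERK -/- 5 and 8 h and NIH3T3 7 h as well. Gdf11 fell at WT 1, 2 and 5 h (from 13.8 to 6.51, 4.84 and 6.09 TPM, on 29, 15 and 42 counts). It fell at PERK -/- 1 and 2 h too (from 17.9 to 6.74 and 7.00 TPM). At NIH3T3 2 h and 7 h it fell on 18 and 22 counts. With TMM scaling and no floor, 0 ligand genes were 2-fold lower at NIH3T3 2 h. In NIH3T3 cells Inhba, which encodes the activin βA chain, rose from 114 to 248 TPM at 2 h, and Bmp1, a procollagen protease, fell from 30.01 to 8.87 TPM at 7 h. The type I, type II and co-receptors had 0 of 12 past 2-fold at any time in WT MEFs with the 4 TPM floor, but 1, 3, 2 and 1 lower at 1, 2, 5 and 8 h with TMM scaling and no floor. Tgfbr3, the co-receptor betaglycan, fell to 0.46 times its control at PERK -/- 5 h and to 0.37 times at NIH3T3 7 h. It fell at NIH3T3 2 h too, as did Bmpr1a and Bmpr2, but with TMM scaling and no floor 0 receptors were 2-fold lower there. Bmpr1a fell at NIH3T3 7 h as well. The WT levels of Tgfbr3 were 6.68 TPM untreated and 5.04, 2.36, 2.67 and 2.61 after Tg, the last 3 of them under the floor. Of the 6 signal-carrying SMADs Smad9 rose at WT 2 h and 0 changed by 2-fold at the other WT times or at any PERK -/- time, while Smad4 fell at NIH3T3 2 h and Smad5 at 7 h.

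Extracellular and membrane antagonists had 3 of 16 lower at WT 5 h and 8 h, Bambi, Bmper and Fst at both, beside 3.55% and 3.87% of all genes. Bmper and Fst fell at PERK -/- 5 h too, Bmper from 30.1 to 10.2 TPM, and Bambi was also lower at WT 1 h and 2 h. Bambi, a decoy receptor, was at 0.45 times its control at 8 h, and Bmper, which binds BMPs outside the cell, was at 0.46 times at 5 h. At PERK -/- 8 h the genes of the latent TGF-β binding proteins, a family of matrix proteins, fell (Ltbp1, Ltbp2, Ltbp3 and Ltbp4). Ltbp2 went from 56.1 to 9.58 TPM at 8 h, and Ltbp3 went from 52.6 to 17.7 TPM at 2 h. In NIH3T3 cells Ltbp3 and Fstl1 fell to 0.34 and 0.39 times their control at 7 h.

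Among 18 intracellular modifiers of SMAD signalling, Ppm1a fell at WT 1 h and at 2 h and 0 changed by 2-fold at WT 5 h and 8 h. Pmepa1, which sequesters SMADs, fell to 0.46 times its control at PERK -/- 8 h. At NIH3T3 7 h the RING-finger protein gene Rnf11 rose 2.82-fold and the SMAD phosphatase gene Ppm1a fell to 0.40 times its control. Ncor1 was 2.31-fold higher in TPM at PERK -/- 5 h, but its log2 change in counts was 0.27 (0.12 to 0.42), so its measures disagree and no direction is given.

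Genes that TGF-β or BMP induces in fibroblasts had 4 of 17 higher at WT 2 h (Ctgf, Hes1, Junb and Klf10), beside 5.66% of all genes, and 7 of 17 lower at PERK -/- 8 h, beside 2.73%. The median log2 change of this list was 0.00 at WT 2 h (-0.07 with TMM scaling) and -0.71 at PERK -/- 8 h. Bambi, also on this list, fell at WT 1, 2, 5 and 8 h. At WT 5 h and 8 h only Klf10 rose, and the list medians were -0.27 and -0.44. Klf10, an early TGF-β response gene, rose from 13.7 to 139 TPM at WT 2 h (10.1-fold) and from 52.9 to 335 TPM at NIH3T3 2 h (6.33-fold). Junb, an AP-1 subunit, rose 2.95-fold and 4.49-fold in the same comparisons. Klf10 was also past 2-fold at the other WT times and at NIH3T3 7 h, and it fell at PERK -/- 8 h. Junb also rose at WT 1 h and NIH3T3 7 h and fell at PERK -/- 2, 5 and 8 h. Ctgf, a matricellular growth factor, went both ways in PERK -/- MEFs: it rose from 444 to 995 TPM at 1 h and fell to 213 TPM at 5 h and 119 TPM at 8 h. In WT MEFs it rose from 1058 TPM to 2819 at 1 h and 2397 at 2 h. Among 11 partners and relatives of the ID proteins, 3 rose at WT 2 h (Hes1, Id4 and Scx), with Hes1, a repressor of the same helix-loop-helix class, at 2.83-fold. Hes1 also rose at both NIH3T3 times and fell at PERK -/- 5 h. Tcf4, which encodes one of the E proteins that ID proteins bind, rose 2.50-fold at WT 8 h and was past 2-fold at WT 5 h too. Bhlhe40 rose 3.88-fold at NIH3T3 2 h and fell to 0.41 times its control at PERK -/- 8 h, and Tcf3, another E protein gene, fell to 0.37 times at NIH3T3 7 h and 0.49 times at PERK -/- 2 h, where TMM scaling gave a log2 change of -0.82, short of 2-fold.

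Genes whose 10 log2 changes ran most like those of Id3 were ranked by Pearson's r. The 2028 genes ranked were kept in both MEFs and NIH3T3 cells. Each had at least 100 expected counts in every control and a change of at least 2-fold in some comparison. The first 5 were Igsf10 (r = 0.98), Ifi35 (0.98), Klf10 (0.97), Gadd45b (0.97) and Hist2h4 (0.96). These r values describe 10 comparisons that share 3 controls and carry no test. For Igsf10 the likeness came from the floor and the PERK -/- fall, since its WT levels were 2.10 to 3.97 TPM and its WT change was 0 at every time. Klf10 and Gadd45b came closer in size, with log2 changes of 3.34 and 2.46 at WT 2 h and 2.66 and 2.24 at NIH3T3 2 h. Within the group of 10, r with Id3 was 0.88 for Id1, 0.82 for Id2, 0.76 for Skil, 0.56 for Tgif1, 0.13 for Ski and -0.91 for Smurf2. Smad6 and Smad7 had too few control counts for this ranking, and Smurf1 was left out because it changed by 2-fold in no comparison.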

How the data were processed

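The data are 13 ribosome footprint libraries, each the sole one of its condition. Footprints of 22 to 34 nt were kept by the authors, cleared of rRNA and tRNA reads with STAR, mapped by Bowtie2 onto mm10 coding sequences from RefSeq that had lost 30 nt at both ends (none under 100 nt), and quantified with RSEM. The authors deposited expected counts, unscaled and in whole numbers. TPM values, scaled within each library, were deposited by the authors too. Tool versions are not given in the sources used here. Nothing states that libraries came from separate cultures.

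A gene was kept where its TPM averaged at least 2 over a table, values under 4 TPM were raised to 4, and a change of 2-fold was called, following the study. The 10 genes and all lists were chosen with earlier results of these data known. All 10 are named. From each list and kind of cell, a rule picked at most the 2 largest changes past 2-fold, given 100 or more expected counts in each library of the pair. The genes most like Id3 had to have that many counts in every control and a change of at least 2-fold in some comparison. Id4 was named outside this rule. Promoters came from RefSeq and coding sequences from GENCODE (96.1% of the MEF genes), both on GRCm38, the assembly called mm10.

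The settings tried were a pseudocount of 1 TPM, a floor of 1 TPM, CPM with 0.5 counts added, TMM factors (edgeR 4.0.16), DESeq2 1.42.0 size factors, thinning of all libraries to the depth of the smallest, a lowess trend on GC content (fraction 0.3) taken out, folds of 1.5 and 3, a mean TPM of at least 5 and no filter. Removal of a coding length trend was added after seeing the data. The software was R 4.3.3, scipy 1.17.1, statsmodels 0.14.6, numpy 2.4.6, matplotlib 3.10.9 and pandas 2.3.3 on Python 3.11.15.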

Additional observations from a re-analysis of the deposited data

Results flagged for a closer look

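Id3 lay above its control in every WT library treated with Tg and below it in every such PERK -/- library. Its lowest log2 change in WT MEFs was 2.08, at 1 h, and its highest in PERK -/- MEFs was -0.0856, also at 1 h. With 1 library per condition the difference was not tested, and Id3 had been chosen for it. The PERK -/- values at 1 h and 2 h are close to 0 and turn positive with TMM factors, DESeq2 size factors and removal of the GC trend.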

How the results depend on the processing

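No paired analysis was possible because each condition was 1 library, and for the same reason no replicate could be left out. No change past 2-fold turned its direction under an alternative that was run. Of the 30 log2 changes of Id1, Id2 and Id3 against their own control, 3 changed sign with TMM factors, DESeq2 size factors or GC removal (Id3 in PERK -/- at 1 h and 2 h, Id1 at 2 h), and 3 when thinned. The number of the 10 genes that rose was 4 at WT 1 h and 4 at WT 5 h after thinning, in part because counts have no floor, and 1 at WT 5 h with the GC trend removed. Smurf2 left the genes that fell at WT 2 h and 8 h, leaving 0, with a pseudocount of 1 TPM, after thinning and with the GC trend removed. In PERK -/- MEFs the number that fell at 2 h was 1 and at 8 h 2 with a floor of 1 TPM, CPM, TMM factors and DESeq2 size factors, and 2 at 8 h after thinning. The median of the 10 genes at PERK -/- 2 h was 0.00535 with TMM scaling and 0.00810 with DESeq2 scaling, against -0.22.

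At 3-fold, the genes that rose were 2 at WT 1 h, 4 at WT 2 h, 1 at WT 5 h, 1 at WT 8 h, 2 at NIH3T3 2 h, 1 at NIH3T3 7 h and 0 in untreated PERK -/- MEFs, and 0 fell in any comparison. At 1.5-fold, the counts that moved by over 1.5 times were 4 that rose at WT 1 h, 4 that rose at WT 5 h, and those that fell, 1 at WT 1 h, 1 at WT 5 h, 1 at PERK -/- 2 h, 5 at PERK -/- 8 h, 2 at NIH3T3 2 h and 1 in untreated PERK -/- MEFs. No share of all genes past 3-fold or 1.5-fold is given, so nothing is read from these numbers of genes. Smad6 and Smad7 had the fewest counts, and Smurf2 had 38 and 37 at WT 2 h and NIH3T3 2 h, so their folds are the least precise.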
